A study of Patiria miniata with 18 samples.

Results

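The genes of the MCM replication helicase were followed through larval regeneration in the bat star Patiria miniata, a sea star whose bisected larvae regrow the missing part. MCM proteins are the motor of DNA replication. During the gap phase before S phase, origin recognition proteins, Cdc6 and Cdt1 load rings of the subunits MCM2 to MCM7 onto DNA as inactive double hexamers, and Cdc45 and the GINS proteins later join each ring to make the active helicase that opens the replication fork. In other animals these subunits are abundant in cycling cells and scarce in quiescent ones, so that they are widely used as markers of proliferation.

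Members were all loci whose name in the authors' table of expressed loci begins with Mcm followed by a digit, after removal of the species prefix. The rule found 18 of 31798 expressed loci, of which 14559 carry a name. 11 of them are named for subunits of the ring, 3 for Pm-Mcm2, 3 for Pm-Mcm3, 3 for Pm-Mcm5 and 2 for Pm-Mcm6, and no locus is named Mcm4 or Mcm7. 1 is named Pm-Mcm8 and 1 Pm-Mcm9, which belong to a related helicase known in vertebrates for DNA repair and meiosis. The other 5 are named Pm-Mcm3apL. This name stands for a protein that associates with MCM3 and not for a helicase subunit, and the loci were taken for the letters of their name only. All 18 passed the filter on low counts, which asked 2 or more libraries for over 3 CPM (counts normalised to library size).

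The study bisected larvae at 7 days post-fertilization through the foregut, midway along the anterior-posterior axis, and sequenced polyA RNA from pools of about 300 siblings. Anterior fragments, posterior fragments and uncut control larvae were collected at about 3 hours post bisection (3 hpb, labelled 0 dpb), at 3 days post bisection (3 dpb) and at 6 dpb, with 2 biological replicates for each of the 9 groups and 18 libraries in all. All groups are wild-type larvae with no stated strain, fed and cultured alike. A library is a whole larva or fragment, so fewer cells of a type and less RNA per cell cannot be told apart.

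Libraries held between 15868104 and 36152675 counts on loci (median 20631998). The fragment labels were checked against genes of the larval axis. At 3 hpb the anterior gene Frizz5/8 stood at 556 and 725 CPM in anterior fragments and at 22.9 and 25.5 in posterior fragments, against 255 and 286 in uncut larvae. The 13 loci of the posterior genes Frizz9/10, Wnt16, Nk1, Wnt8 and Bra summed to 144 and 138 CPM in anterior fragments and to 613 and 615 in posterior fragments, against 347 and 336 in uncut larvae. FoxQ2, Six3 and Ets1 matched no locus. CPM here are scaled by the TMM method of edgeR, whose factors were lowest in the replicate 2 fragments at 3 hpb, at 0.677 in anterior and 0.696 in posterior fragments. Scaling by library size alone shifted all log2 fold changes against uncut larvae. At 3 hpb the shift was -0.42 for anterior and -0.37 for posterior fragments, and at 6 dpb it was 0.14 for posterior fragments, so changes at these times are relative to the other loci.

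Several loci carry the name of 1 subunit, and it is not known here which of them are copies, alleles or pieces of a gene. Reads from near-identical copies could be split among them or lost, so the level of a subunit is uncertain while its pattern can be read in each locus. Positions are on scaffolds of the P. miniata v1.0 assembly. Pm-Mcm2 is at XLOC_014406 (scaffold 14239 from 3775 to 17734, 17 exons) and XLOC_017765 (scaffold 15497 from 18793 to 28705, 12 exons). Pm-Mcm3 is at XLOC_025255 (scaffold 187 from 29 to 3577, 5 exons), XLOC_031922 (scaffold 2290 from 1045 to 10952, 15 exons) and XLOC_037057 (scaffold 272 from 99274 to 113155, 17 exons). Pm-Mcm5 is at XLOC_019329 (scaffold 16052 from 3207 to 19543, 14 exons) and XLOC_037485 (scaffold 2771 from 27692 to 40033, 12 exons). Pm-Mcm6 is at XLOC_013090 (scaffold 13769 from 16464 to 30340, 18 exons) and XLOC_039573 (scaffold 3025 from 19186 to 39689, 18 exons). These 9 loci, with several exons and 1 name, are called the ring loci below.

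The remaining subunit loci were set apart by their structure, with their values known. XLOC_017766 (scaffold 15497 from 2694 to 19165) carries the name Gpr175 beside Pm-Mcm2, and 366 of its exonic bases overlap those of the Pm-Mcm2 locus XLOC_017765 on the opposite strand. XLOC_037491 (scaffold 2771 from 24185 to 26870) is a single exon without a strand that shares its gene model with the Pm-Mcm5 locus XLOC_037485. The Pm-Mcm6 locus XLOC_039573 shares 2944 exonic bases with an unnamed locus on the other strand. Whether reads were counted by strand is not given in the sources used here, so reads of such overlaps cannot be assigned with certainty.

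The study also designed a Nanostring nCounter hybridization probe for 1 member, the Pm-Mcm2 locus XLOC_014406, of which 1 assembled transcript is its target. Its 100 bases, with a GC content of 52.0%, are shown because they mark which of the Pm-Mcm2 loci the study followed outside the RNA-Seq. The sequence is given as the study lists it, with no part marked.
Mcm2 probe: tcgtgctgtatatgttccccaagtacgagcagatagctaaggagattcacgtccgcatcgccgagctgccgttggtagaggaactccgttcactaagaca

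The 2 replicates disagreed strongly for the ring loci. Pm-Mcm5 XLOC_019329, the ring locus with the most counts, had 0.603 CPM in replicate 2 and 25.0 CPM in replicate 1 of anterior fragments at 3 hpb, 1.19 and 15.6 CPM in posterior fragments, and 5.45 and 23.6 CPM in uncut larvae. At 3 dpb it had 1.43 CPM in replicate 2 and 35.3 CPM in replicate 1 of anterior fragments, 3.33 and 29.3 CPM in posterior fragments, and 2.15 and 27.1 CPM in uncut larvae. At 6 dpb the values were 3.12 CPM in replicate 2 and 25.7 CPM in replicate 1 of anterior fragments, 26.3 and 46.0 CPM in posterior fragments, and 4.23 and 19.5 CPM in uncut larvae. Replicate 2 was the lower one in all 9 groups, and least so in posterior fragments at 6 dpb.

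**Figure D1:**
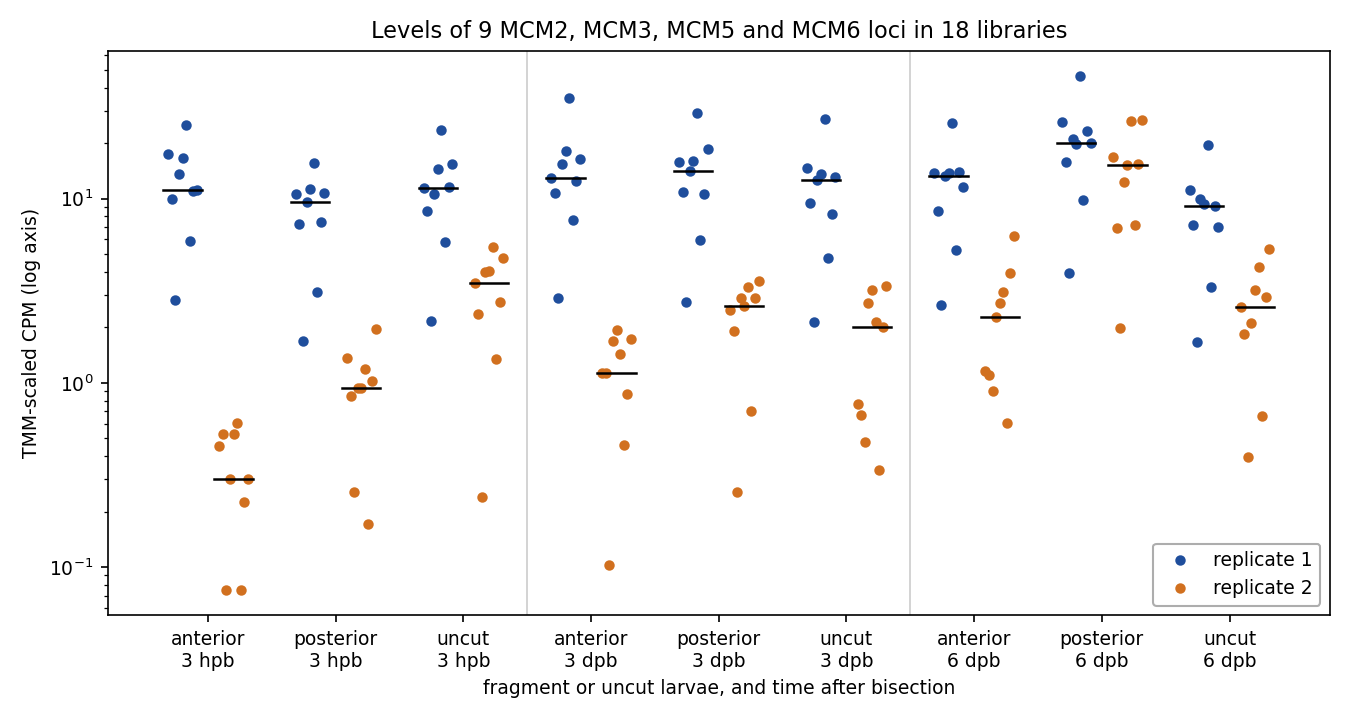
TMM-scaled CPM on a log axis of the 9 ring loci (points) in each of the 18 libraries, by fragment and time after bisection, replicate 1 in blue and replicate 2 in orange, with the median of the 9 loci as a bar. In replicate 1 the medians lie between 9.08 and 19.9 CPM, in replicate 2 between 0.301 and 15.2 CPM, and the highest median of each replicate is that of posterior fragments at 6 dpb.

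The other ring loci were alike. Summed over the 9 loci, replicate 2 held 3.09 CPM and replicate 1 held 114 CPM in anterior fragments at 3 hpb, the largest ratio of the 9 groups, while in posterior fragments at 6 dpb they held 129 and 186 CPM, the smallest ratio. All 9 were lower in replicate 2 in 8 of the groups and 8 were lower in posterior fragments at 6 dpb, where Pm-Mcm6 XLOC_039573 had 26.5 CPM in replicate 2 and 19.9 CPM in replicate 1. Across pairs of ring loci the correlation of log2 levels over the 18 libraries had a median of 0.953 and ranged from 0.876 to 0.991, points that share their libraries and this replicate difference. With the mean of each set of 3 sibling pools removed it ranged from 0.518 to 0.982.

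A comparison of replicate 2 with replicate 1 over the 9 groups was added after the values had been seen. It counts the 9 groups as separate repeats, although pools with the same replicate number at a time point were taken as 1 set. Deviations of such pools correlated at 0.742 to 0.916, so its p-values are likely too small. edgeR's quasi-likelihood test with 1 replicate term called 14 of the 18 members, with a threshold of 0.05 on the Benjamini-Hochberg adjusted p, while 47.3% of all expressed loci were called, so differences between the replicates are common in these data. 11 of them were lower in replicate 2 and 3 were higher. The log2 difference of the 9 ring loci ranged from -1.83 to -3.11 (median -2.65, against -0.04 over all loci), with adjusted p from 6.15e-05 to 0.00671. Pm-Mcm8 stood at -2.07 (adjusted p = 1.13e-04) and the single-exon Pm-Mcm5 locus XLOC_037491 at -3.72 (adjusted p = 0.0155). Both of them, and the ring locus Pm-Mcm3 XLOC_025255, passed the filter on low counts through replicate 1 libraries only. The ring loci Pm-Mcm2 XLOC_017765 and Pm-Mcm5 XLOC_037485 also needed replicate 1 to pass. In replicate 2 they were above 3 CPM in posterior fragments at 6 dpb only. That choice favours a lower replicate 2, so the test gives no support for it in these loci. The value of XLOC_037491 does not hold at each time. At 3 hpb this locus had 3, 1 and 4 counts in replicate 2 of anterior, posterior and uncut pools, against 1, 2 and 0 in replicate 1. At 3 dpb it had 1, 1 and 5 counts in replicate 2, against 99, 148 and 327 in replicate 1. At 6 dpb these were 0, 1 and 0 against 22, 14 and 24. The locus with the Gpr175 name was higher in replicate 2, by 1.34 (adjusted p = 4.51e-04), as were the Pm-Mcm3apL loci XLOC_005895, by 0.53, and XLOC_012484, by 0.36 (adjusted p = 0.0496). Pm-Mcm9 stood at 0.22 (adjusted p = 0.347). The labels do not say how the replicates differ, and what moves these loci between them was not tested.

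The uncut larvae are described as siblings of the fragments, and pools with the same replicate number at a time point were taken as 1 set. Fragments were compared with uncut larvae within each such set of pools, in 1 edgeR quasi-likelihood fit of all 18 libraries with a replicate block within each time point. The threshold for a call was again 0.05, with p-values adjusted over the 31798 expressed loci. Comparisons of anterior and of posterior fragments at a time point share the uncut libraries, and so do not give independent values. Beside the fit stand the fold changes of each replicate alone, for which an interval of 95% covers counting error only.

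At 3 hpb the ring loci of anterior fragments stood near or above those of uncut larvae in replicate 1 and far below them in replicate 2. Pm-Mcm2 XLOC_014406 had 17.5 CPM in anterior fragments and 11.4 CPM in uncut larvae of replicate 1, and 0.452 and 3.47 CPM in those of replicate 2. These are ratios of 1.54 (interval 1.27 to 1.86) and of 0.130 (0.0463 to 0.298), the first above 1 and the second below it. Pm-Mcm6 XLOC_039573 had 11.2 CPM in anterior fragments and 15.4 CPM in uncut larvae of replicate 1, against 0.301 and 4.77 CPM in replicate 2, ratios of 0.727 (0.596 to 0.886) and 0.0631 (0.0169 to 0.167). It was lower in both. Over the 9 ring loci the ratio ranged from 0.727 to 1.54 in replicate 1 (7 higher, 2 lower) and from 0.0558 to 0.313 in replicate 2 (all 9 lower), where anterior fragments had from 1 to 8 counts a locus. The lowest ratio of replicate 2, that of Pm-Mcm5 XLOC_037485, rests on 1 count against 28 (interval 0.00136 to 0.338).

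Of the 18 members, 1 was called in anterior fragments at 3 hpb and 2 had an unadjusted p under 0.05, while 26.9% of all expressed loci were called and 40.6% had an unadjusted p under 0.05. The called member was XLOC_017766, which shares its name with Gpr175. It had 32.1 and 178 CPM in replicates 1 and 2 of anterior fragments, against 27.5 and 41.0 CPM in uncut larvae, a rise of 1.12 (log2 fold change, SE 0.37, edgeR adjusted p = 0.0428) that lay mostly in replicate 2 and ran opposite to the ring loci there. The ring loci ranged from -1.44 to 0.11 with a median of -0.90, and the nearest to a call was Pm-Mcm6 XLOC_039573 at -1.44 (SE 0.57, adjusted p = 0.0788). The count of members called was 5 without replicate 1 of the uncut larvae and 4 without replicate 1 of the anterior fragments, and 0 without replicate 2 of either. DESeq2 called 2.

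Posterior fragments at 3 hpb were lower than uncut larvae for most ring loci in both replicates, by less in replicate 1. Pm-Mcm5 XLOC_019329 had 15.6 and 1.19 CPM in replicates 1 and 2 of posterior fragments, against 23.6 and 5.45 CPM in uncut larvae, and a log2 fold change of -1.40 (SE 0.66, edgeR adjusted p = 0.226). Within replicate 1 all 9 ring loci were lower, at ratios from 0.538 to 0.928, and within replicate 2 8 were lower, at ratios from 0.126 to 1.06. The exception was Pm-Mcm3 XLOC_025255, with 3 counts in posterior fragments and 5 in uncut larvae of replicate 2. None of the 18 members was called (0, and 0 at an unadjusted p under 0.05 and by DESeq2), against 4.29% and 23.7% of all loci at an adjusted and an unadjusted p. Without replicate 1 of the uncut larvae the count was 4. Of other cell types, the mesenchyme gene Erg had 32.0 and 59.8 CPM in posterior fragments, against 29.1 and 58.8 CPM in uncut larvae. The 2 loci of the gut genes FoxA and Gatae summed to 367 and 492 CPM in posterior fragments, against 355 and 335 CPM in uncut larvae. In anterior fragments the gut sum was 162 and 178 CPM. The part of cell composition in the MCM values was not tested.

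**Figure D2:**
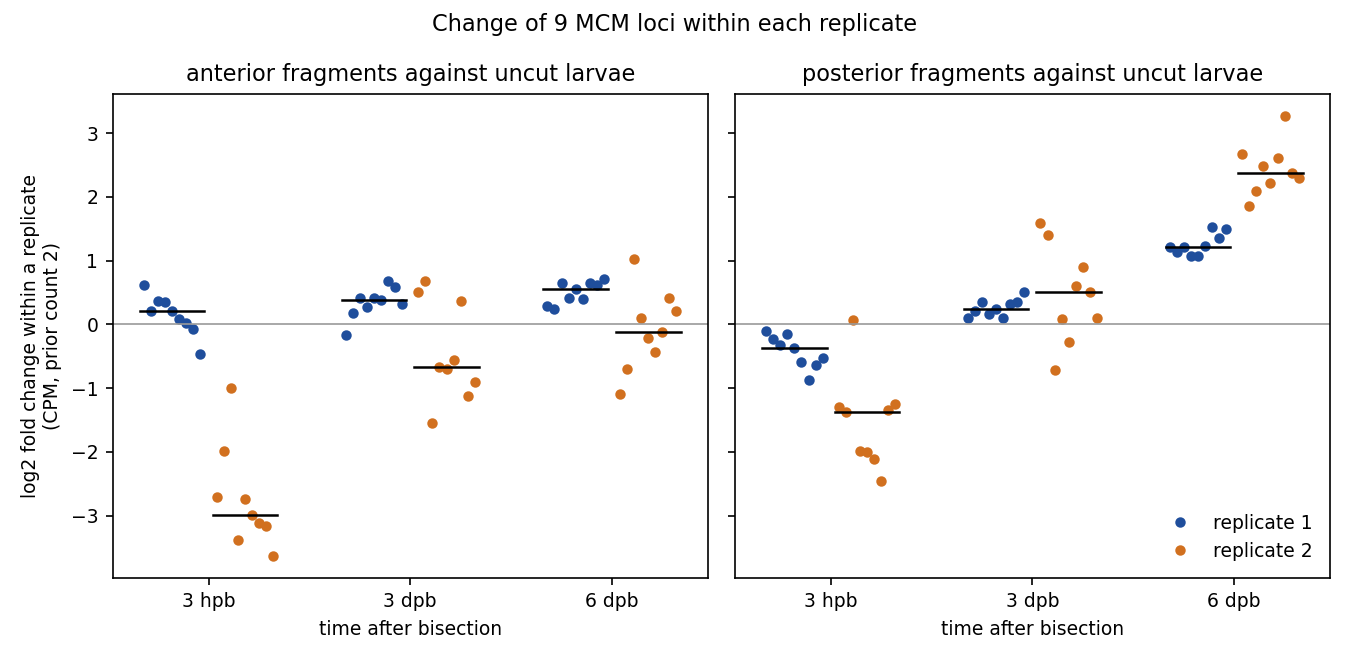
Log2 fold change of the 9 ring loci (points) in anterior (left) and posterior fragments (right) against the uncut larvae of the same replicate, at 3 time points, from CPM with a prior count of 2, with medians as bars. At 3 hpb the loci of anterior fragments lie between -0.46 and 0.62 in replicate 1 and between -3.63 and -0.99 in replicate 2, and at 6 dpb all 9 loci are above 0 in both replicates of posterior fragments.

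At 3 dpb fragments and uncut larvae differed less. Pm-Mcm2 XLOC_014406 had 13.0 and 1.12 CPM in replicates 1 and 2 of anterior fragments and 15.8 and 2.49 CPM in posterior fragments, against 14.7 and 0.764 CPM in uncut larvae. The 3 groups overlapped, but within replicate 2 the posterior level of this locus was 3.27 times the uncut one (interval 1.78 to 6.26), against 1.08 times (0.933 to 1.24) in replicate 1. In anterior fragments 8 of the 9 ring loci were higher than in uncut larvae in replicate 1, at ratios from 0.886 to 1.61, and 6 were lower in replicate 2, at ratios from 0.214 to 1.68, so the replicates went opposite ways. In posterior fragments all 9 were higher in replicate 1, at ratios from 1.08 to 1.42, and 7 in replicate 2, at ratios from 0.536 to 3.27. Fitted log2 fold changes of the ring loci lay between -0.19 and 0.62 in anterior fragments (median 0.00) and between -0.02 and 0.68 in posterior fragments (median 0.35). edgeR called 0 of the 18 members in anterior fragments (1 at an unadjusted p under 0.05, and 0 by DESeq2), against 3.93% and 11% of all loci. In posterior fragments it called 0 (0 at an unadjusted p and 0 by DESeq2), against 0.27% and 8.17%. The member with the unadjusted p was the single-exon Pm-Mcm5 locus XLOC_037491.

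At 6 dpb the ring loci stood higher in posterior fragments than in uncut larvae in both replicates. Their median fitted difference was the largest of the 6 comparisons with uncut larvae, although within replicate 2 alone that of anterior fragments at 3 hpb was larger, in the other direction. Pm-Mcm5 XLOC_037485 had 9.81 and 7.20 CPM in replicates 1 and 2 of posterior fragments, against 3.33 and 0.660 CPM in uncut larvae, ratios of 2.95 (interval 2.42 to 3.61) and 10.9 (5.79 to 23.1). Both posterior libraries were above both uncut libraries. Pm-Mcm6 XLOC_039573 had 19.9 and 26.5 CPM in posterior fragments, against 7.00 and 5.35 CPM in uncut larvae, ratios of 2.85 (2.48 to 3.27) and 4.96 (3.93 to 6.33), with no overlap either.

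Pm-Mcm2 XLOC_014406 had 26.1 and 16.8 CPM in replicates 1 and 2 of posterior fragments, against 11.2 and 2.57 CPM in uncut larvae. Pm-Mcm3 XLOC_037057 had 19.7 and 15.2 CPM in posterior fragments, against 9.29 and 3.17 CPM in uncut larvae. In both genes the posterior libraries lay above the uncut ones, as was so for 8 of the 9 ring loci and for 14.6% of all expressed loci. The exception was Pm-Mcm2 XLOC_017765, with 15.9 and 6.94 CPM in posterior fragments, against 7.16 and 1.85 CPM in uncut larvae, where the replicate 2 posterior library lay below the replicate 1 uncut library. Over the 9 loci the ratio within replicate 1 ranged from 2.11 to 2.95 and within replicate 2 from 3.76 to 10.9.

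None of these differences passed the threshold. edgeR called 0 of the 18 members in posterior fragments at 6 dpb, against 4.4% of all loci, and 10 had an unadjusted p under 0.05, against 19.5% of all loci. The 10 were the 9 ring loci and Pm-Mcm8, all higher. The log2 fold changes of the ring loci ranged from 1.55 to 2.45 with a median of 1.89, against 0.02 over all loci, and their adjusted p from 0.0516 to 0.118. The smallest were those of Pm-Mcm5 XLOC_037485, at 2.45 (SE 0.63, adjusted p = 0.0516), and Pm-Mcm6 XLOC_039573, at 1.94 (SE 0.51, adjusted p = 0.0554). The calls here turned on the tool and the filter: DESeq2 called 8 members and edgeR without a filter on low counts called 9, while 1 replicate term for all times called 0 with adjusted p of 0.281 to 0.493 for the ring loci. The share of all loci called by DESeq2 and without the filter was not counted, so the 8 and 9 cannot be set against it. Without replicate 1 of posterior fragments the count was 1. Erg stood at 50.7 and 52.9 CPM in posterior fragments, against 39.9 and 70.1 CPM in uncut larvae, and the gut sum at 327 and 498 CPM against 301 and 330 CPM.

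**Figure D3:**
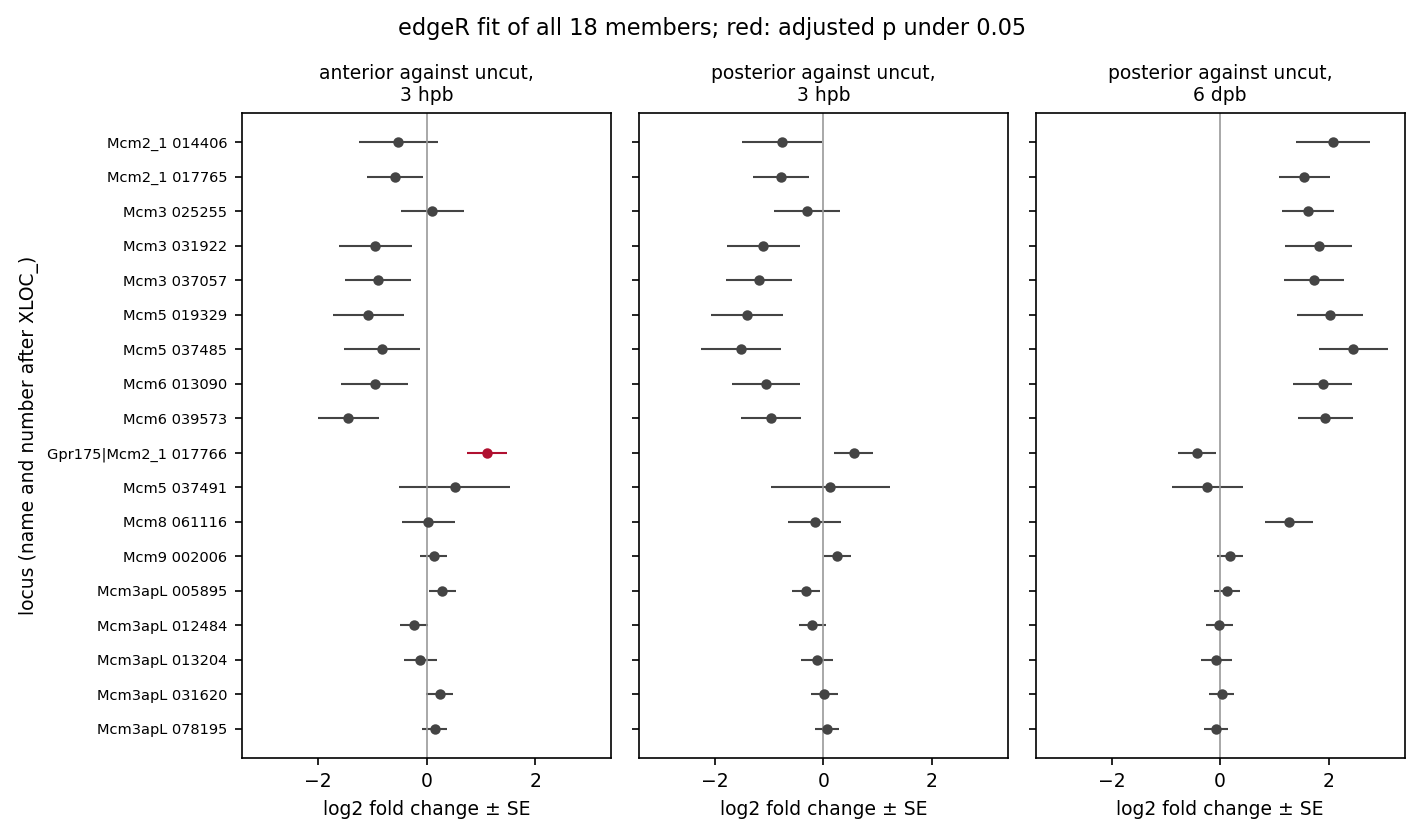
Log2 fold change with its standard error (bars) of all 18 members in edgeR's fit with a replicate block within each time point, for 3 comparisons with uncut larvae (anterior at 3 hpb, posterior at 3 hpb, posterior at 6 dpb), with called loci in red. The 9 ring loci (top) lie between 1.55 and 2.45 in posterior fragments at 6 dpb without a call, while the 5 Pm-Mcm3apL loci (bottom) lie near 0.

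Anterior fragments at 6 dpb did not stand apart from uncut larvae in this way. Pm-Mcm5 XLOC_037485 had 5.28 and 0.603 CPM in replicates 1 and 2 of anterior fragments, against 3.33 and 0.660 CPM in uncut larvae. All 9 ring loci were higher than in uncut larvae within replicate 1, at ratios from 1.19 to 1.64, and 4 were higher and 5 lower within replicate 2, at ratios from 0.449 to 2.28. edgeR called 0 of the 18 members (0 at an unadjusted p under 0.05 and 0 by DESeq2), against 3.75% and 9.26% of all loci, and the ring loci ranged from -0.13 to 0.79 with a median of 0.29.

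Anterior and posterior fragments were also compared with each other, where the uncut larvae play no part. At 6 dpb, 1 of the 18 members was called and 8 had an unadjusted p under 0.05, against 12.9% and 24.7% of all loci. The called member was Pm-Mcm2 XLOC_017765. It had 8.52 and 1.11 CPM in replicates 1 and 2 of anterior fragments, against 15.9 and 6.94 CPM in posterior fragments, a log2 fold change of -1.62 (SE 0.47, edgeR adjusted p = 0.0425), lower in both replicates. The next were Pm-Mcm5 XLOC_037485 at -2.02 (SE 0.62, adjusted p = 0.0523) and Pm-Mcm2 XLOC_014406 at -2.20 (SE 0.69, adjusted p = 0.0593). All 9 ring loci were lower in anterior fragments within each replicate, at ratios from 0.526 to 0.698 in replicate 1 and from 0.0687 to 0.458 in replicate 2, and for 6 of the 9 both anterior libraries lay below both posterior ones, as for 18.1% of all expressed loci. The gut sum was lower in anterior fragments too, at 159 and 282 CPM against 327 and 498 CPM in posterior fragments, and its part in the MCM values was not tested. The count of members called was 3 without replicate 1 and 0 without replicate 2 of the anterior fragments, 5 without replicate 1 and 0 without replicate 2 of the posterior fragments, and 0 with library size alone as scaling or 1 replicate term for all times. DESeq2 called 5.

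At the earlier times the fragments were closer. At 3 hpb edgeR called 0 of the 18 members (1 at an unadjusted p under 0.05, and 0 by DESeq2), against 12% and 27% of all loci. All 9 ring loci were higher in anterior than in posterior fragments within replicate 1, at ratios from 1.05 to 1.89, and all 9 were lower within replicate 2, at ratios from 0.154 to 0.619. At 3 dpb it called 0 (0 at an unadjusted p and 0 by DESeq2), against 7.43% and 19.9%, with ring loci from -0.65 to 0.10 and a median of -0.30. Within replicate 1, 6 were higher and 3 lower in anterior fragments (ratios from 0.824 to 1.29), and within replicate 2 all 9 were lower (ratios from 0.302 to 0.740).

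The change between 3 hpb and 6 dpb in the difference of fragments from uncut larvae was tested as an interaction. In posterior fragments 3 of the 18 members were called and 9 had an unadjusted p under 0.05, against 5.37% and 25% of all loci. Pm-Mcm5 XLOC_037485 stood at 2.45 against uncut larvae at 6 dpb and at -1.52 at 3 hpb, a change of 3.97 (SE 0.97, edgeR adjusted p = 0.0415). The other Pm-Mcm5 locus, XLOC_019329, stood at 2.02 at 6 dpb and -1.40 at 3 hpb, a change of 3.42 (SE 0.90, adjusted p = 0.0499). Pm-Mcm6 XLOC_039573 stood at 1.94 at 6 dpb and -0.96 at 3 hpb, a change of 2.90 (SE 0.75, adjusted p = 0.0483). Over the 9 ring loci the difference ranged from 1.92 to 3.97 with a median of 2.91 (against 0.01 over all loci) and with adjusted p up to 0.153, and none of them was called at 6 dpb or at 3 hpb alone.

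Single libraries decided these calls. The count was 9 without replicate 1 of the uncut larvae at 3 hpb and 8 without replicate 1 of the posterior fragments at 6 dpb. It was 0 without each of the other 6 libraries: replicate 2 of the uncut larvae at 3 hpb, either replicate of the uncut larvae at 6 dpb or of the posterior fragments at 3 hpb, and replicate 2 of the posterior fragments at 6 dpb. DESeq2 called 8. In anterior fragments edgeR called 0 members (2 at an unadjusted p under 0.05, and 0 by DESeq2), against 2.32% and 22.6% of all loci, with ring loci from 0.39 to 1.94 and a median of 1.17. Without replicate 1 of the uncut larvae at 3 hpb the count was 2. With 1 replicate term for all times, 0 of 198 tests of a member in the 11 comparisons passed the adjusted threshold and 26 had an unadjusted p under 0.05, against 2.26% and 10.9% of the tests of all loci.

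Changes between consecutive times within uncut larvae, anterior fragments and posterior fragments were tested in a fit with 1 replicate term, since a block within time points takes up such changes. edgeR called 0 of the 18 members in each of the 6 comparisons, and so did DESeq2. On data simulated for uncut larvae at 6 dpb against 3 dpb, the edgeR fit recovered 17% of 4-fold and 0% of 2-fold changes. A lack of calls therefore says little about changes of that size. In uncut larvae at 3 dpb against 3 hpb, 0 members had an unadjusted p under 0.05, against 0% of all loci called and 2.51% at an unadjusted p, and at 6 dpb against 3 dpb 0 again, against 0.0598% and 5.58%. In anterior fragments these were 1 at 3 dpb against 3 hpb (0.0157% and 15.4% of all loci) and 0 at 6 dpb against 3 dpb (0.182% and 6.04%). In posterior fragments these were 0 at 3 dpb against 3 hpb (0.00314% and 12.6%) and 6 at 6 dpb against 3 dpb (0.12% and 9.37%). The 6 were ring loci, whose changes to 6 dpb in posterior fragments ranged over the 9 from 1.37 to 2.49 with a median of 1.85. Within replicate 1 the 6 dpb level was 1.07 to 2.2 times that of 3 dpb and within replicate 2 it was 3.62 to 10.2 times, higher for all 9 in both. Without replicate 2 of posterior fragments at 6 dpb the median was 0.48 and without replicate 1 it was 2.74.

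The order of the 9 groups by mean level was headed by posterior fragments at 6 dpb for all 9 ring loci, and within each replicate alone that library was the highest of 9 for every ring locus. Pm-Mcm5 XLOC_019329 averaged 36.2 ± 13.9 CPM there (SD, n = 2). Second came anterior fragments at 3 dpb, at 18.4 ± 24.0 CPM, and last posterior fragments at 3 hpb, at 8.39 ± 10.2 CPM, and no neighbours in the order of this locus differ beyond the spread of their 2 libraries. In 3 other ring loci, Pm-Mcm2 XLOC_014406 and the Pm-Mcm6 loci, both libraries of the first group lay above both of the second, and further down no neighbours were apart in this way in any ring locus. Posterior fragments at 3 hpb had the lowest mean for 8 ring loci, and anterior fragments at 3 hpb for Pm-Mcm6 XLOC_039573. Within replicate 2, anterior fragments at 3 hpb were the lowest library for all 9, and within replicate 1 the lowest was posterior fragments at 3 hpb for 5 loci and uncut larvae at 6 dpb for 4.

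Per length, ring loci were expressed at low to middle levels. The mean over the 18 libraries ranged from 3.60 CPM per kilobase of exon for Pm-Mcm2 XLOC_014406 to 1.66 for Pm-Mcm3 XLOC_025255, between the 21.9th and 50.4th percentile of all expressed loci. In posterior fragments at 6 dpb the same Pm-Mcm2 locus reached 10.3 and 6.65 CPM per kilobase, against 4.49 and 1.37 in uncut larvae at 3 hpb. With the longest transcript as the length, the other Pm-Mcm2 locus, XLOC_017765, moved from 2.58 to 4.86 CPM per kilobase, above all other ring loci.

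Among the members outside the ring loci, Pm-Mcm8 was like the ring loci in its lower replicate 2 and in posterior fragments at 6 dpb. Its level was lower, 0.622 CPM per kilobase on average. At 3 hpb it had 2.73 CPM in replicate 1 of posterior fragments and 2.34 CPM in uncut larvae, where all 9 ring loci were lower. At 6 dpb it had 3.58 and 1.47 CPM in replicates 1 and 2 of posterior fragments, against 1.80 and 0.462 CPM in uncut larvae (log2 fold change 1.27, SE 0.45, edgeR adjusted p = 0.133). Pm-Mcm9, a single exon without a strand (scaffold 10505 from 15672 to 19312), had between 2.21 and 5.71 CPM over the 18 libraries and stood at 0.18 (SE 0.23, adjusted p = 0.749) in the same comparison. The 5 Pm-Mcm3apL loci had between 2.31 and 22.8 CPM over all libraries and stood between -0.08 and 0.12 there.

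The single-exon Pm-Mcm5 locus XLOC_037491 was high in 1 set of sibling pools. In replicate 1 at 3 dpb it had 4.69 CPM in anterior fragments and 6.26 CPM in posterior fragments, against 11.4 CPM in uncut larvae, and in the other 15 libraries it had at most 0.759 CPM. Its neighbour XLOC_037485, with the same gene model, had 7.68 and 5.96 CPM in those fragments, against 4.76 CPM in uncut larvae, all within the range of 3.11 to 9.81 CPM of its other replicate 1 libraries. XLOC_037491 passed the filter on low counts through those 3 libraries.

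**Figure D4:**
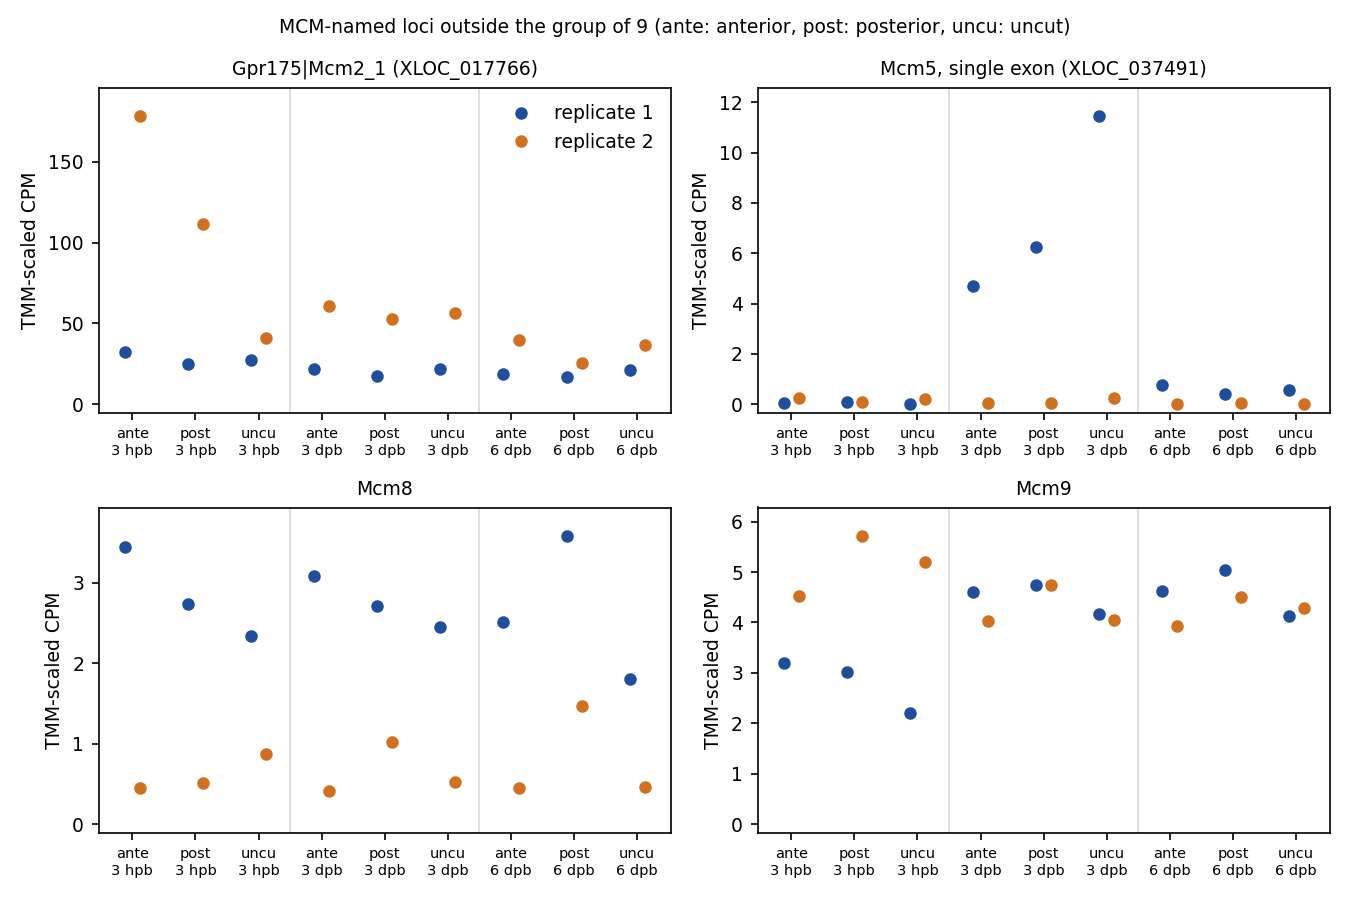
TMM-scaled CPM of 4 members outside the ring loci in the 18 libraries, by fragment (anterior, posterior, uncut) and time after bisection, replicate 1 in blue and replicate 2 in orange. XLOC_017766 is highest in the replicate 2 fragments at 3 hpb, at 178 and 111 CPM, XLOC_037491 is high in replicate 1 at 3 dpb only, Pm-Mcm8 is lower in replicate 2 throughout, and Pm-Mcm9 stays between 2.21 and 5.71 CPM.

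Partners of the ring in replication were taken from a list of loading, activation, polymerase and clamp genes, of which 55 loci were matched by name. Cdt1, Geminin and Pcna matched none. Loci named Pm-Pola did not match the polymerase names asked for and are not among the 55. In posterior fragments at 6 dpb 11 of the 55 were called higher and 2 lower than in uncut larvae, against 1.1% higher and 3.3% lower of all loci. Their median was 1.16. At an unadjusted p under 0.05, 36 were higher and 2 lower, against 2464 higher and 3724 lower of 31798 expressed loci. With 1 replicate term for all times none of these 13 calls remained (smallest edgeR adjusted p = 0.162). In that fit 19 were higher and 2 lower at an unadjusted p, against 958 higher and 1934 lower of all loci. The 2 called lower are named for Pm-Orc1, a subunit of the origin recognition complex, and both are single exons without a strand, like the Pm-Mcm5 locus XLOC_037491. Pm-Orc1 XLOC_066965 had 11.0 and 35.3 CPM in replicates 1 and 2 of posterior fragments, against 36.1 and 86.6 CPM in uncut larvae (-1.51, SE 0.24, edgeR adjusted p = 0.00856), and unlike the ring loci it was higher in replicate 2. The other, XLOC_069699, stood at -1.44 (adjusted p = 0.0295).

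Both loci of Pm-Sld5, a GINS subunit, were called higher in posterior fragments at 6 dpb, XLOC_064986 by 1.62 (SE 0.34, edgeR adjusted p = 0.0271) and XLOC_047283 by 1.43 (SE 0.31, adjusted p = 0.0295). XLOC_064986 had 3.61 and 2.53 CPM in posterior fragments, against 1.36 and 0.660 CPM in uncut larvae. None of the other partners named here passed the threshold: the adjusted p of Pm-Cdc45 (XLOC_000562) was 0.225, and the GINS genes Pm-Psf2 stood at 1.32 and 1.65, Pm-Psf3 at 1.72 (adjusted p from 0.0637 to 0.0992), and the loader Pm-Cdc6 at 1.32 and 1.10 (adjusted p = 0.138 and 0.237). In anterior fragments at 3 hpb 4 of the 55 were called, all lower, while 14.5% of all loci were called lower, so the share of the partners was not above that of other loci. Among them Pm-Cdc6 XLOC_018135 had 0.639 and 0.904 CPM in anterior fragments, against 4.30 and 2.36 CPM in uncut larvae (-2.08, SE 0.54, edgeR adjusted p = 0.0175), lower in both replicates. In posterior fragments at 3 hpb 3 were called, all lower, against 1.86% of all loci. With 1 replicate term 0 of the 55 were called at 3 hpb in either fragment, the smallest edgeR adjusted p being 0.121 in anterior and 0.191 in posterior fragments, with 4 and 5 loci at an unadjusted p under 0.05. Over the 9 groups, 44 of the 55 were called lower in replicate 2 than in replicate 1 and 2 higher, with a median of -1.63, against 24.8% of all loci called lower. As for the members, that test counts the 9 groups as separate repeats, so its p-values are likely too small.

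4 loci named Mcm with no number, which the rule did not take, were like the ring loci. In posterior fragments at 6 dpb their log2 fold changes against uncut larvae ranged from 1.60 to 2.03, and 1 was called (edgeR adjusted p just under 0.05), against 1.1% of all loci called higher. With 1 replicate term 0 were called (smallest edgeR adjusted p = 0.362). In that fit 3 were higher at an unadjusted p under 0.05, against 958 of 31798 expressed loci. The named locus most like the mean profile of the 11 subunit loci over the 18 libraries, by Pearson correlation of log2 CPM, was one of them, XLOC_045434 (r = 0.985), with 11.7 and 9.47 CPM in posterior fragments at 6 dpb, against 4.27 and 1.52 CPM in uncut larvae. Next came Pm-Tim1 (XLOC_021845, r = 0.981), the S-phase kinase gene Pm-Cdk2 (XLOC_004898, r = 0.981), the clamp loader gene Pm-Rfc4 (XLOC_079828, r = 0.980) and the clamp unloader gene Pm-Atad5 (XLOC_045190, r = 0.977). These correlations are over 18 libraries that carry the replicate difference, and with 12 fold changes against uncut larvae in place of levels 1 of the 5 stayed among the first 5. The others there were Pm-Pola XLOC_032301, the Mcm locus XLOC_073042 with no number, Pm-Tubgcp2 XLOC_056956 and Pm-Topbp1 XLOC_075511.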

How the data were processed

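RNA-Seq counts of 18 libraries were analysed. Per the labels and the study's methods, reads were trimmed (Trimmomatic) and aligned by the authors with TopHat 2.0.12 to P. miniata assembly v1.0, loci were built with Cufflinks 2.2.1, and the authors deposited unnormalized counts of uniquely mapped reads per locus from HTSeq 0.6.1p1. Their table of expressed loci was used for names only, and its log2 fold changes against controls, the authors' own comparisons, were not used. Left out were reads outside loci (from 2.37% to 3.65%) and ambiguous ones (from 6.12% to 8.74%). The scaffold positions come from the deposited assembly of exons.

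Tests covered loci above 3 CPM in 2 or more libraries and were run with edgeR 4.0.16 in R 4.3.3 (TMM, quasi-likelihood F test, Benjamini-Hochberg adjustment over 31798 loci, threshold 0.05). Fragment comparisons used a replicate block within each time point, taking pools with the same number at a time point as 1 set. The labels call the uncut larvae siblings of the fragments but do not say what a number marks, so the pairing comes from the data: deviations of same-numbered groups correlated at 0.742 to 0.916 within a time point (9 pairs) and 0.179 to 0.675 between time points (27 pairs). The common dispersion was 0.0475 with this block and 0.146 with 1 replicate term. With 2 libraries per group, precision rests on 2 pools and on the spread shared across loci. Intervals of single-replicate ratios are exact binomial intervals of 95%. Alternatives used other blocks, DESeq2 1.42.0, its size factors, library size alone, other filters, fits per time point, another call rule and each library left out. The comparison of replicate 2 with replicate 1 was added after seeing the data. The fits were tested on simulated data. The blocked fit, for posterior fragments against uncut larvae at 6 dpb, recovered 86% of 4-fold and 10% of 2-fold changes. With 1 replicate term, for uncut larvae at 6 dpb against 3 dpb, 17% and 0% were recovered. False calls numbered 4 and 0. Among the 200 loci changed in each test, most 2-fold changes were missed by both fits, and most 4-fold changes by the second. Recovery for the ring loci alone was not tested. In posterior fragments at 6 dpb their ratios to uncut larvae were 2.11 to 2.95 in replicate 1 and 3.76 to 10.9 in replicate 2. The blocked fit called 0 of these 9 loci, at log2 fold changes of 1.55 to 2.45.

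The text names every member, the partners Orc1, Cdc6, Cdc45 and GINS, and the 5 named loci most like the subunit loci. Members and lists were chosen with earlier results of these data known. Summaries used Python 3.11.15, pandas 2.3.3, numpy 2.4.6 and scipy 1.17.1, figures matplotlib 3.10.9.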

Additional observations from a re-analysis of the deposited data

Results flagged for a closer look

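In posterior fragments, the difference of 3 ring loci from uncut larvae changed between 3 hpb and 6 dpb. This was so in the edgeR interaction test with a replicate block within each time point. A fragment lacks the rest of the larva, so a response to the cut and the loss of tissue cannot be told apart. The log2 change was 3.97 for Mcm5 XLOC_037485, 3.42 for Mcm5 XLOC_019329 and 2.90 for Mcm6 XLOC_039573 (adjusted p = 0.0415, 0.0499 and 0.0483). Each was higher than in uncut larvae in both replicates at 6 dpb and lower in both at 3 hpb. In this test 5.37% of all loci were called. None of the 3 calls remained with 1 replicate term for all times or without any one of 6 of the 8 libraries.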

How the results depend on the processing

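The count of the 18 members called moved most in posterior fragments. With 1 replicate term for all times (replicate block across time points) and with no replicate block it was 0 for anterior fragments at 3 hpb, for anterior against posterior fragments at 6 dpb and for the posterior change from 3 hpb to 6 dpb, against 1, 1 and 3. A fit of each time point alone gave 0 for anterior fragments at 3 hpb and for anterior against posterior fragments at 6 dpb and 1 for anterior fragments at 3 dpb, against 0. Library size alone gave 0 for anterior against posterior fragments at 6 dpb and 6 for the posterior change. It also called 1 ring locus lower in anterior fragments at 3 hpb (edgeR adjusted p = 0.0463), where the main fit called no ring locus. A filter of more than 1 CPM gave 2 for posterior fragments at 6 dpb, against 0, and 3 for anterior against posterior fragments at 6 dpb, and no filter gave 2 for anterior fragments at 3 hpb, 9 for posterior fragments at 6 dpb, 8 for anterior against posterior fragments at 6 dpb and 8 for the posterior change. DESeq2 gave 2, 8, 5 and 8 for the same 4 comparisons. The rule of an unadjusted p under 0.05 and more than 2-fold gave 2, 10, 8 and 9 for them, 1 for anterior fragments at 3 dpb and 2 for the anterior change. Apart from 1 replicate term for all times, the share of all loci called was not counted under these settings. The member counts therefore have no such share beside them. The cause of these differences was not tested.

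Leaving out single libraries gave from 0 to 5 members for anterior fragments at 3 hpb, from 0 to 4 for posterior fragments at 3 hpb, from 0 to 1 for posterior fragments at 6 dpb, from 0 to 5 for anterior against posterior fragments at 6 dpb, from 0 to 9 for the posterior change and from 0 to 2 for the anterior change. Where this leaves 1 library in a group, that library is assumed to vary like the others. No value that was called in either fit changed sign, and of 3415 uncalled values under alternatives 368 had the other sign. The ring loci were higher in posterior fragments than in uncut larvae at 6 dpb, all 9, under each alternative run. At 3 hpb replicate 2 fragments had 1 to 23 counts per ring locus, which limits the precision of their ratios. By Spearman correlation 2 of the 5 most similar named loci stayed, and 1 by fold changes.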
